A study of Mus musculus with 9 samples.

Results

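Among the autosomal windows in which chromatin accessibility was read, a small group had a very low level on average over all libraries. These windows were chosen by their measured values, namely a mean of 7% GpC methylation or less over 9 libraries, each of which had to hold a value. The rule took 1341 of 786533 windows on chromosomes 1 to 19, or 0.170%, and they are called low-mean windows here. The assay was NOMe-seq, which treats fixed cells with a GpC methyltransferase and reads the added marks by bisulfite sequencing, so that a higher percent GpC methylation stands for more accessible DNA. All libraries came from a female FVB/CAST F1 mouse embryonic stem cell (mESC) line. One library was made from undifferentiated cells at day 0, 4 from differentiating cells with a non-silencing control hairpin (Nons) at days 4, 5, 6 and 7, and 4 from cells with a hairpin titled Smarcc16 at the same days. Its target Smarcc1 encodes a scaffold protein of BAF, a complex that uses ATP to move nucleosomes. The hairpins were delivered by virus on day 2 and puromycin was added on day 3, so that the 8 later libraries share transduction and selection and the day 0 library does not. Each condition and day was 1 library, and the number of reads behind a window is unknown. Differences between libraries therefore have no replicate check.

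DNA wrapped around nucleosomes is poorly reached by the methyltransferase, whereas nucleosome-free DNA, such as the promoters of active genes, is readily marked. Genes that serve other tissues, arrays of tandemly duplicated genes and repeats lie mostly in compact chromatin in embryonic stem cells. A window of low GpC methylation is one in which few of the GpC cytosines read were marked.

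Sequences of the lowest windows and of 4 gene starts in low-mean windows are shown to give an idea of what the assay could read there. They do not stand for all low-mean windows, most of which lie outside genes or hold no gene start. Each is from the mm10 reference, which is not the FVB or CAST sequence, and is printed 5′ to 3′ with every GC dinucleotide in capitals, since these hold the cytosines that the methyltransferase can mark. The first 3 are the middle 200 bases of the windows with the lowest means and follow the forward strand. They lie at chr7:59896946-59897145 inside an intron of Snhg14, a long non-coding RNA that carries snoRNA arrays, at chr12:23489063-23489262 outside the annotated exons of the window that holds the pseudogene Gm9286, and at chr12:18040809-18041008 inside an intron of the transcribed pseudogene Gm49329.
Snhg14 intron window, chromosome 7: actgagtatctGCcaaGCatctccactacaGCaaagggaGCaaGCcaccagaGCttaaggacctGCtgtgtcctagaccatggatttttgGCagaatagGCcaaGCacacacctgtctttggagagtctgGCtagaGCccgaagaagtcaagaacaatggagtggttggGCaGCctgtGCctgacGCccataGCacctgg
Gm9286 window, chromosome 12: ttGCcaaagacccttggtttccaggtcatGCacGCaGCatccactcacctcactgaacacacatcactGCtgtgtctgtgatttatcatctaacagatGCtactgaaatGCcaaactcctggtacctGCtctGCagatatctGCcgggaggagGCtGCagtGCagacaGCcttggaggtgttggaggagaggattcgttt
Gm49329 intron window, chromosome 12: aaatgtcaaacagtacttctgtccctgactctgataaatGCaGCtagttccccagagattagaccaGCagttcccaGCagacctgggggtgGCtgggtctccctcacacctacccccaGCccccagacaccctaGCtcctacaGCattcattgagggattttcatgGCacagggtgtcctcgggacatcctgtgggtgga
These stretches held 17, 14 and 9 GC dinucleotides, so none lacked positions that the assay can read, and 2, 3 and 1 CG dinucleotides. Which of these positions carried reads is not known.

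Then follow 4 genes, picked by hand for their known roles from the protein-coding genes whose start lay in a low-mean window. Shown are the 250 bases before their RefSeq start (GRCm38, the assembly of mm10). They are at chr12:103904951-103905200 (reverse strand) for Serpina1c, a protease inhibitor of the liver, at chr7:4337465-4337714 (forward) for Ncr1, an activating receptor of natural killer cells, at chr4:43454627-43454876 (reverse) for Cd72, a B-cell co-receptor, and at chr3:92944236-92944485 (forward) for Lce3c, a protein of the cornified envelope of skin.
Serpina1c: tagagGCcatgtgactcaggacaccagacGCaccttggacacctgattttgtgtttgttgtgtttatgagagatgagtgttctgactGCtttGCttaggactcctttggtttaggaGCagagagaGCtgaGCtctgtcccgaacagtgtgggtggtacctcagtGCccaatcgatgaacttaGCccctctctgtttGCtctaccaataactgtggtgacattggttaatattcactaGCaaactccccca
Ncr1: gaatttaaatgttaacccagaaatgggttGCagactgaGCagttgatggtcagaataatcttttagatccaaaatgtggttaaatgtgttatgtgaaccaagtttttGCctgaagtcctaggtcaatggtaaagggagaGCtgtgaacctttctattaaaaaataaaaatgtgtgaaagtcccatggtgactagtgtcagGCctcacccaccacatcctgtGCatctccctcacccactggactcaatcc
Cd72: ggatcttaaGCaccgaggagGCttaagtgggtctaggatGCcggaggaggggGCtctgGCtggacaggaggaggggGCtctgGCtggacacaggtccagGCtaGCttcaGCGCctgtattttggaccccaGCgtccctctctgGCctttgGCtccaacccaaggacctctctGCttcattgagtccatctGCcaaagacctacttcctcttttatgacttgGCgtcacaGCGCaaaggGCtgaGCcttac
Lce3c: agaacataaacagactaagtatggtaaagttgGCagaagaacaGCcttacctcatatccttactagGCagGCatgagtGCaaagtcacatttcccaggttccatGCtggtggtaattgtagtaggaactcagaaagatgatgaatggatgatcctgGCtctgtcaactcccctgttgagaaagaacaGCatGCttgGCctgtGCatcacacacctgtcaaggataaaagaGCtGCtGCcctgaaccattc
They held 11, 6, 21 and 14 GC dinucleotides, and 3, 0, 6 and 0 CG dinucleotides. Over all RefSeq promoters with their start in a low-mean window, 37 in all, the 300 bases around the start held a median of 2 CG dinucleotides (quartiles 1 and 4), against 7 (quartiles 3 and 21) over 31396 autosomal promoters. Of the 37, 33 (89.2%) held 5 or fewer, against 43.2% of all. The promoters in low-mean windows were thus mostly of the CpG-poor kind.

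Over all autosomal windows the mean of the 9 values averaged 13.4% (SD 2.98) and ran from 3.61% to 80.9%. The low-mean windows had a median mean of 6.64%, and most of them lay just under the limit, since 5% of them were under 5.50% and 186 were at 6% or less. The lowest was chr7:59894811-59899280, 4470 bp within Snhg14 that hold the start of Snord116l9, a small nucleolar RNA of the imprinted Prader-Willi region, with a mean of 3.61%. It read 15.2% at day 0, 4.10%, 2.33%, 5.26% and 0% in the Nons at days 4, 5, 6 and 7, and 0%, 3.51%, 2.08% and 0% in the knockdown at these days. Its day 0 value was above the median of all windows in that library and each of the other 8 values was below theirs.

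The next window, chr12:23483007-23495318 around Gm9286, had a mean of 3.67% over 12312 bp. It read 0% at day 0, 4.17%, 11.1%, 0% and 0% in the Nons, and 2.99%, 13.0%, 0% and 1.72% in the knockdown, so its only values over 5% were those of day 5. The third, chr12:18039573-18042244 in Gm49329, had a mean of 3.99% and read 3.70% at day 0, 3.49%, 1.85%, 0% and 1.32% in the Nons, and 6.56%, 11.9%, 7.14% and 0% in the knockdown. The fourth, chr15:74626217-74628028, covered a coding exon of Mroh4 on chromosome 15 and had a mean of 4.14%, with all 9 values between 0% and 8.91%. The window ranked 10, chr4:151316465-151317800 in an intron of Camta1, a calmodulin-binding transcription activator, was the most even of the 10 lowest, with 9 values between 1.96% and 7.78% and a mean of 4.60%.

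Nothing separated the windows on either side of the limit. The last 3 inside it had means of 6.9992%, 6.9997% and 6.9998% and lay in a coding exon of Mavs, an adaptor of antiviral signalling, outside genes on chromosome 15 and in an intron of Prkg1, a cGMP-dependent kinase. The first 3 outside it had means of 7.0002%, 7.0007% and 7.0008% and lay outside genes on chromosome 1, in a coding exon of Abca13 and in an intron shared by Jakmip1 and Gm1043. The single values of the Mavs window ran from 0% to 17.3% and those of the Jakmip1 window from 0% to 18.3%.

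The libraries differed in their general level, and the low-mean windows followed them. At day 0 their median was 4.92%, against 11.3% over all windows. The Nons libraries of days 4, 5, 6 and 7 gave medians of 8.33%, 9.17%, 4.55% and 3.15%, against 13.95%, 21.2%, 10.3% and 6.41% over all windows. The knockdown libraries gave 5.81%, 10.4%, 5.65% and 2.99%, against 11.1%, 20.2%, 11.9% and 7.14%. The median of the low-mean windows was therefore between 0.418 (knockdown day 7) and 0.597 times (Nons day 4) that of all windows. These levels describe the choice and are no test of it, since all 9 values entered the rule.

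**Figure D1:**
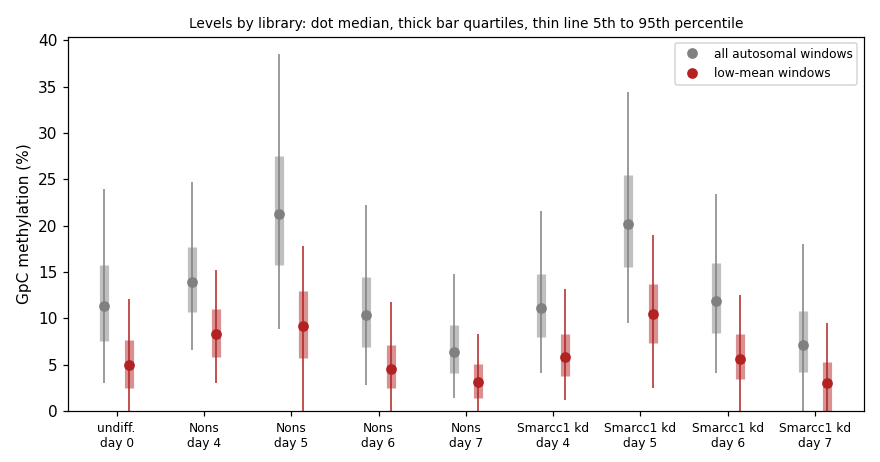
GpC methylation in percent (y axis) in each of the 9 libraries (x axis) for all 786533 autosomal windows (grey) and the 1341 low-mean windows (red). Dots are medians, thick bars quartiles and thin lines the 5th to 95th percentile; the red medians run from 2.99% to 10.4% and the grey ones from 6.41% to 21.2%, in much the same order.

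A low mean did not require a low value everywhere. Of the 1341 windows, 555 (41.4%) were at or below the median of all windows in every library. It was exceeded in 1 library by 611 (45.6%), in 2 by 164 (12.2%) and in 3 by 11 (0.820%). Over all autosomal windows these 4 shares were 0.550%, 3.30%, 9.35% and 16.98%. The same values had entered the rule, so this contrast describes the choice. The library in which a low-mean window was above the general median was most often Nons day 7 (199 windows) and least often Nons day 5 (22 windows), the library with the highest level of all and so the largest weight in an unweighted mean. A value of exactly 0% was frequent. It was seen in 355 low-mean windows (26.5%) in the knockdown at day 7, against 5.35% of all windows, and in 7 (0.522%) in the Nons at day 4, against 0.029%. No value of 0% was seen in 520 of the windows, 1 in 542, and 2 or more in the rest. The highest of the 9 values of a low-mean window was a median of 14.3%, against 25.8% over all windows, and the coefficient of variation over the 9 libraries was a median of 0.714 against 0.562. Relative to their mean, the values of the low-mean windows were thus more scattered between libraries. In percentage points they were less so, with a median SD over the libraries of 4.61 against 7.30.

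Whether such windows are low in a library that had no part in choosing them was looked at by leaving out each library in turn and taking the 1341 windows with the lowest mean of the other 8. In the 8 libraries used, their mean level was 0.449 to 0.475 times that of all windows. In the library left out, it was 0.843 to 0.900 times that of all windows. The median was 9.68% at day 0 against 11.3% over all windows. It was 12.2%, 18.2%, 8.86% and 5.30% in the Nons at days 4 to 7, against 13.95%, 21.2%, 10.3% and 6.41%, and 9.41%, 17.4%, 10% and 6.00% in the knockdown, against 11.1%, 20.2%, 11.9% and 7.14%. The level in the library left out was below that of all windows in 9 of 9 cases, by 1.11 to 3.03 percentage points in the median. Between 57.4% (knockdown day 7) and 65.0% (Nons day 4) of the windows were below the median of the library left out, and 14.7% to 18.5% were in its lowest decile. Most of the depth of the low levels was therefore not seen again in a library outside the choice. The label of constitutively closed windows was borne out only in part by these data, and the windows are named here by their rule.

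**Figure D2:**
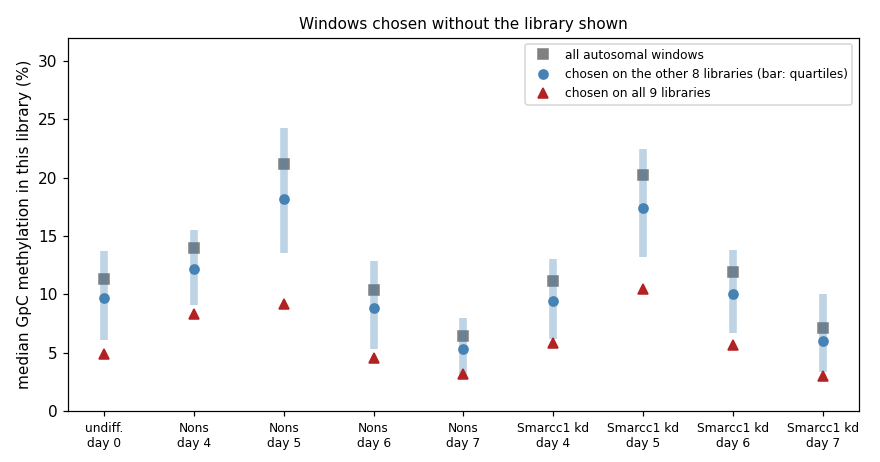
Median GpC methylation in percent (y axis) in each library (x axis) over all autosomal windows (grey squares), the 1341 windows chosen on the other 8 libraries (blue, bars are quartiles) and the 1341 chosen on all 9 (red triangles). In 9 of 9 libraries the blue median lies between the other medians and nearer to the grey one.

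The sequence of the low-mean windows differed from that of the other windows in its base composition. Their GC content was a median of 45.5% (SD of the chromosome medians 1.71, n = 19), against 42.5% (SD 0.981) over all windows, and the median was higher in 19 of 19 autosomes. The share of low-mean windows rose from 0.033% in the decile of windows poorest in GC to 0.373% in the richest. The general level hardly moved over the same range, with a median of 13.5% in both outer deciles and 12.8% in the fifth. The spread of the mean levels between windows grew, with an SD of 2.21 percentage points in the poorest decile and 4.82 in the richest. The higher GC content did not come with more CpG sites. The low-mean windows held 7.45 CpG per kb and all windows 7.75, and the low-mean median was higher in 8 of 19 autosomes.

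Low-mean windows were found at both ends of the range of lengths. Their median length was 2542 bp (SD of the chromosome medians 266, n = 19) against 2783 bp over all windows (SD 127). Of the shortest decile (854 to 2030 bp) 0.380% were low, of the fifth 0.114% and of the longest decile (4132 bp and more) 0.221%. The share that was repeat-masked showed the same form, with 0.310% low in the least masked decile, 0.113% in the sixth and 0.295% in the most masked. The spread of the mean levels differed too. In the 3 length deciles above, their SD was 4.23, 2.83 and 2.37 percentage points. For the 3 deciles of masked share it was 3.91, 2.78 and 2.48. The windows were drawn by the submitters to hold a set number of read positions, and the number of informative GpC positions in the genome was a median of 226 a window. By this construction a window with many more positions than that is one in which many positions carried no read. Over 300 GpC positions were found in 179 low-mean windows (13.3%, exact 95% interval 11.6% to 15.3%), against 3.85% of all windows. Over 600 were found in 44 (3.28%) against 0.675%. Intervals here cover counting over windows only, and neighbouring windows are not independent.

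Both sides of that split held low-mean windows. The 1162 low-mean windows with 300 GpC positions or fewer were short, with a median of 2421.5 bp against 2749 bp for all windows of that kind, and little masked, with 22.6% against 24.2%. Their GC content was 45.6% against 42.6%, the same difference as over all. The 179 with more positions were a median of 5259 bp long and 57.9% masked, where all windows of that kind were 5552 bp long and 72.1% masked, and their GC content was 43.7% against 41.2%. The GC difference was thus present in both, and the windows with many unread positions made up the long, masked end of the low-mean windows. When windows of the first kind alone were chosen on 8 libraries, the level in the ninth was 0.846 to 0.897 times that of all windows of that kind. What the unread positions contribute to the low values was not tested.

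**Figure D3:**
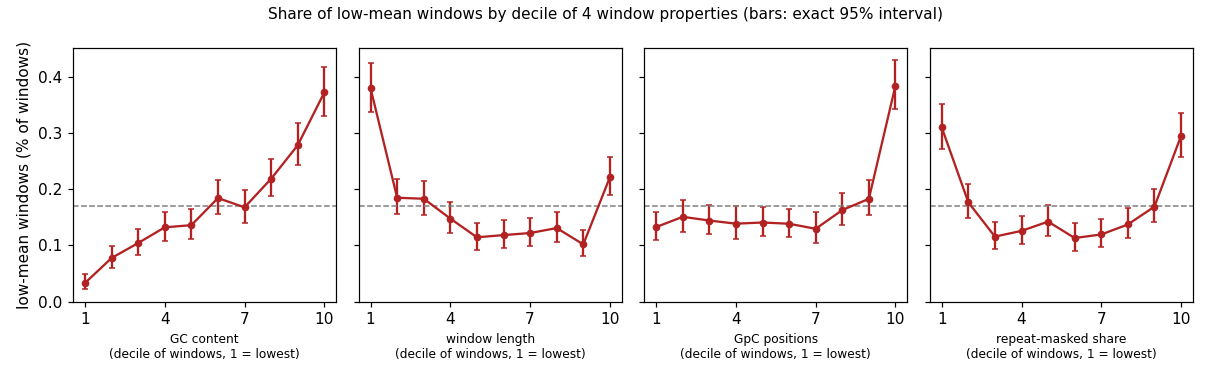
Percent of windows that were low-mean (y axis) in each decile of the autosomal windows ordered by GC content, length, number of GpC positions and repeat-masked share (x axes, 1 is the lowest decile), with exact 95% intervals and the overall share of 0.170% as a dashed line. The share runs from 0.033% to 0.373% over GC content with a dip in decile 7, is high at both ends for length and masked share, and for GpC positions is 0.183% in decile 9 and 0.385% in decile 10.

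The low-mean windows were spread over all autosomes, with more on some than on others. Chromosome 7 held 177 of them among 46689 windows (0.379%, interval 0.325% to 0.439%), the highest share, and was followed by chromosome 12 with 94 (0.253%, interval 0.205% to 0.310%) and chromosome 17 with 67 (0.215%). The lowest shares were those of chromosome 2 with 68 (0.113%) and chromosome 3 with 55 (0.115%). Among windows with 300 GpC positions or fewer, the share was 0.309% on chromosome 7 and 0.185% on chromosome 12. It was lower than over all windows on both, as on every other autosome. Of all autosomal windows of this kind, 1162 of 756263 were low-mean. The median level of all windows was 12.7% on chromosome 7 and between 12.9% and 13.2% on the other 18.

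**Figure D4:**
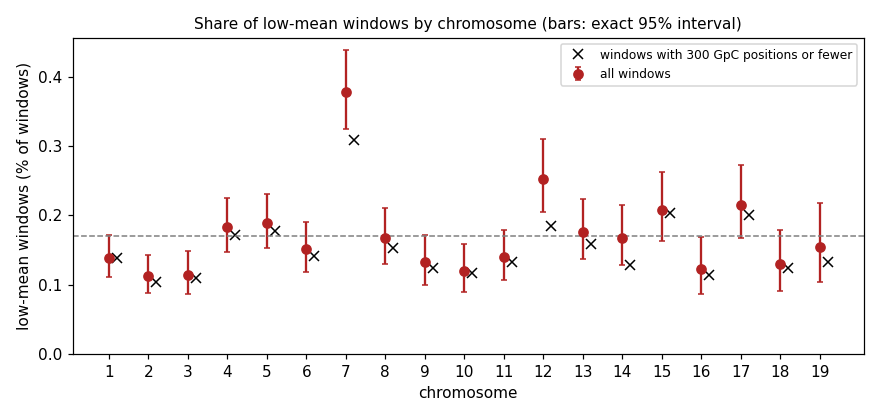
Percent of windows that were low-mean (y axis) on each autosome (x axis), with exact 95% intervals, for all windows (red) and for those with 300 GpC positions or fewer (crosses); the dashed line is the share of 0.170% over all windows, whatever their number of positions. Chromosome 7 stands highest at 0.379%, with 0.309% among windows with fewer positions, and chromosome 12 has 0.253% and 0.185%.

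On a finer scale, 835 of 2394 bins of 1 Mb held a low-mean window, and 25 bins with 5 or more held 150 of the windows. The 5 bins with the highest shares lay in 2 places. On chromosome 12, the bins from 18, 19 and 22 Mb held 6 of 191, 7 of 194 and 7 of 113 windows (6.19%). This stretch carries pseudogenes and unnamed gene models, among them Gm9286 and Gm49329 above. On chromosome 7, the bins from 32 and 33 Mb held 6 of 121 (4.96%) and 8 of 248 windows (3.23%). They carry the Scgb1b and Scgb2b genes, a tandem array that encodes the secreted androgen-binding proteins of saliva and tears.

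These places were also low outside the chosen windows. They were picked for their share of low-mean windows, and the levels come from the same 9 libraries. The values below are therefore a description and no independent check. In chromosome 12 from 18 to 24 Mb, the windows that were not low-mean had a median level of 11.5%, and in chromosome 7 from 31 to 34 Mb 11.03%, against 13.0% over all windows that were not low-mean. In both, the median of the windows that were not low-mean was below the median of all windows in 9 of 9 libraries. In the Scgb stretch it was 9.30% at day 0 against 11.3%, 18.4% in the Nons at day 5 against 21.2%, and 4.76% in the knockdown at day 7 against 7.14%. On chromosome 12 the windows that were not low-mean held a median of 275 GpC positions and in the Scgb stretch 244, both over the general 226. The part of unread positions in these levels was not tested.

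Directly adjacent low-mean windows were rare. Of the 1341, 24 (1.79%) lay next to another, as 12 pairs, and no run was longer than 2 windows. All runs being equally long, the 5 pairs with the lowest mean are given. They began at chr4:114110258-114117052 (means of 6.80% and 4.65% in its 2 windows), at chr3:3002179-3005880, which holds the start of the miRNA gene Gm28002 (4.75% and 6.85%), at chr7:64464890-64472445 (6.70% and 5.34%), at chr14:33857551-33859760 (6.52% and 6.06%) and at chr5:112783929-112786245 in Myo18b, an unconventional myosin of muscle (6.88% and 6.00%). Apart from Gm28002 and Myo18b, these pairs overlapped no annotated gene. Of the other 7, 2 lay at Scgb2b pseudogenes in the array described above. Of all autosomal windows 0.335% lay next to a low-mean window. Within 100 kb, 335 low-mean windows (24.98%) had another, against 9.83% of all windows. The level of the windows around them was reduced in the same way on both sides. Windows that were not low-mean and lay 1 window before or after had a mean of 11.9% and 12.1%. At 5 windows away the means were 12.5% and 12.7%, and at 20 they were 12.8% and 12.6%, against 13.4% over all windows that were not low-mean. In each of the 9 libraries the next windows were lower than the general mean, at 0.866 times in the Nons at day 6 to 0.915 times in the knockdown at day 5. These ratios were close to those of windows chosen without the library.

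**Figure D5:**
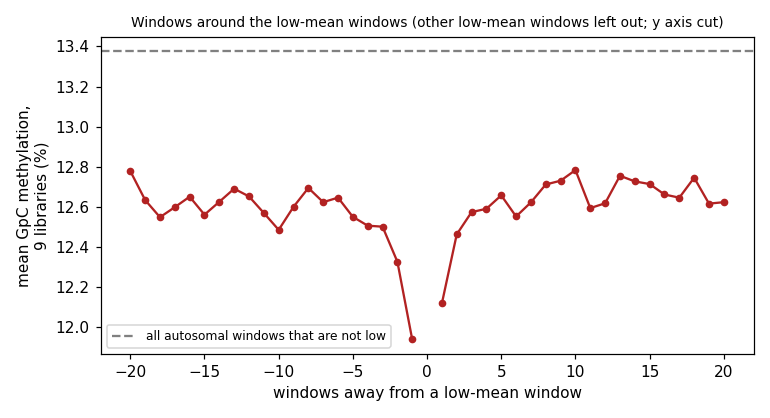
Mean GpC methylation over 9 libraries in percent (y axis, not starting at 0) of the windows that lie 1 to 20 windows before or after a low-mean window (x axis), with low-mean windows themselves left out and the mean of all other windows as a dashed line. The level is 11.9% and 12.1% right beside a low-mean window, rises within about 3 windows and stays under the dashed line at 13.4%.

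Low-mean windows were found less often at gene starts. A start site of a coding gene or a long non-coding RNA lay in 23 of them (1.72%, exact 95% interval 1.09% to 2.56%), against 3.39% of all windows. At the stricter limit of 6%, the share was 3.23% of 186 windows, close to that of all windows. They overlapped a gene of either kind in 48.7% of cases against 54.3%, an exon in 21.6% against 23.4% and coding sequence in 17.1% against 16.8%. By class of gene, the start was in a low-mean window for 21 of 20068 protein-coding genes (0.105%), 5 of 9226 long non-coding RNA genes (0.054%) and 65 of 11408 pseudogenes (0.570%). Of the pseudogenes, those that arose by duplication (unprocessed) had 29 of 1950 (1.49%). Those that arose by reverse transcription (processed) had 33 of 9072 (0.364%). Several starts shared a window, so these counts are not of separate windows. The 65 pseudogene starts lay in 51 windows, the 29 unprocessed in 21 and the 33 processed in 28. The windows at protein-coding starts had a median level of 18.5% in general, and those at pseudogene starts 12.8%.

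The 21 protein-coding genes shared 19 windows and 6 of them were gene models with a Gm symbol. Vmn1r148, a vomeronasal receptor that detects pheromones, was the lowest at 4.54%. Its window of 26078 bp held 1650 GpC positions and was 75.4% masked. It read 0% in 5 libraries, 21.2% in the knockdown at day 5 and 14.6% in the Nons at day 7, so that this mean rests on a few high values among zeros. Serpina1c had 5.16% in a window of 1862 bp, with 14.5% at day 0, 5.56%, 0%, 1.54% and 1.75% in the Nons and 5.69%, 6.38%, 6.76% and 4.29% in the knockdown. Its day 0 value was the highest of the 9, and all later values were below 7%.

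Prl2c2, a placental hormone of the prolactin family, had 5.50%. It read 10.9% at day 0, 7.83%, 11.1%, 4.23% and 5.13% in the Nons, and 4.59%, 3.85%, 1.92% and 0% in the knockdown, so that the knockdown was below the Nons on all 4 days. Ncr1 had 6.26%, with 20.6% in the knockdown at day 5 as its highest and 1.11% in the knockdown at day 7 as its lowest value. Lce3c had 6.43% with all values between 0% and 11.1%. The remaining 5 of the 10 lowest windows were those of Gm49630 (5.99%), Gm3404 (6.15%), 9930111J21Rik1 and Olfr56, which share a window (6.30%), Gm49369 (6.37%), whose window also covers coding exons of the protease gene Ctsd, and Gm2916 (6.56%). Cd72 was at 6.80%, and Lcn3, a secreted lipocalin, at 6.79%.

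Of 22 gene families, 6 had a member whose start lay in a low-mean window. The share of such starts over all protein-coding genes was 0.105%. The olfactory receptors, the odour receptors of the nose, had 3 of 1118 (Olfr56, Olfr412 at 6.70% and Olfr620 at 6.93%), and the vomeronasal receptors 3 of 322, namely Vmn1r148 and, in 1 window of 129840 bp at 6.66%, Vmn2r46 and Vmn2r47. The segments of immunoglobulin and T-cell receptor genes, which are joined in lymphocytes, had 3 of 466, Ighd2-5 at 5.93%, Ighv15-2 at 6.06% and Trav10d at 6.62%. The secreted and urinary proteins had 1 of 75 (Lcn3), the prolactin family 1 of 25 (Prl2c2) and the serpins 1 of 59 (Serpina1c). Counted over all windows of the genes, the share was 0.227% (7 of 3089, exact 95% interval 0.091% to 0.466%) in olfactory receptors. It was 0.399% (6 of 1503, 0.147% to 0.867%) in vomeronasal receptors and 0.922% (4 of 434, 0.252% to 2.34%) in the receptor segments. Secreted and urinary proteins had 1.29% (2 of 155, 0.157% to 4.58%), the prolactin family 1.45% (1 of 69, 0.037% to 7.81%) and the serpins 0.659% (3 of 455, 0.136% to 1.91%). The share over all autosomal windows was 0.170%, and of these 6 families only the receptor segments had an interval wholly above it.

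In the other 16 families no start lay in a low-mean window. They include the 77 cytosolic ribosomal protein genes, the 67 replication-dependent histone genes, the 46 proteasome subunits, the 37 Hox genes, the 23 BAF subunits and the 366 zinc finger genes. The windows of the histone genes had a median level of 25.2%, of the ribosomal protein genes 18.9% and of the Hox genes 17.98%. Zinc finger genes had 4 low-mean windows of 4415 (0.091%), the proteasome genes 1 of 438 and the BAF genes 0 of 712. Also with no start were the trace amine receptors, keratins, keratin-associated proteins, defensins, cytochrome P450 genes, killer cell lectin-like receptors, C-type lectins, protocadherins, potassium channels, and GABA and glutamate receptors. The 16 families had 15 to 366 starts each, for which the 0.105% of all protein-coding starts would give less than 1. Keratin genes had 2 low-mean windows of 234 and cytochrome P450 genes 3 of 936, while potassium channels had 6 of 3524 (0.170%).

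Some duplicated arrays held several low-mean windows. They were picked after their windows had been seen, so their counts are a description. Of 92 windows over the 59 Scgb1b and Scgb2b genes and pseudogenes, 9 (9.78%) were low-mean. The others of these windows had a median level of 9.63% and were under the library median in 9 of 9 libraries. In the snoRNA arrays within Snhg14, transcribed from the paternal chromosome in neurons, 6 of 63 windows (9.52%) were low-mean and held the starts of 14 of 129 snoRNA genes. The others had a median of 10.1% and were again under the library median in 9 of 9 libraries. Besides the window of Snord116l9, the lowest of the 6 held Snord116l13 and Snord116l14 at 4.89%, with 15.6% in the knockdown at day 5 as its highest value and 0% in 3 libraries. Windows over the Obox homeobox genes and pseudogenes, expressed in the oocyte and early embryo, had 2 of 95 low-mean. Those over the 183 Ighv segments and pseudogenes had 5 of 194. The count of receptor segments among the families above left pseudogenes out. One window at 6.15%, chr2:10515020-10517778, lay in an intron of Sfmbt2, a Polycomb gene that carries a large miRNA array, and held Mir297a-3, Mir466l and Mir669i. Reads from near-identical copies of an array cannot be told apart, so that values in these places are uncertain. The Scgb windows held a median of 236 GpC positions and the snoRNA windows 341.

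Most long genes with a low-mean window held a single one. Of 4977 protein-coding genes with 20 windows or more, 331 held at least 1 and 55 held 2 or more. Of all autosomal windows 0.170% were low-mean, and of those that overlap a coding or long non-coding RNA gene 0.153%. A gene with more windows has more that can be low-mean, and in Gm20388, listed below by its count, the share was 0.146%. Camta1 held the most, 5 of 423 windows (1.18%), followed by Trappc9, which encodes a subunit of a vesicle tethering complex, with 4 of 211 (1.90%). Sh3rf3 (3 of 125), the sorting receptor Sorcs2 (3 of 179), the postsynaptic scaffold Shank2 (3 of 197), the neuronal splicing factor Rbfox3 (3 of 204), Tmem132d (3 of 247), the cadherin Cdh13 (3 of 410), Csmd1 (3 of 493) and the long gene model Gm20388 (3 of 2055) followed. The highest shares were those of Dnaaf5, a dynein arm assembly factor, with 2 of 21 (9.52%), Ankmy1 with 2 of 22 and Umodl1 with 2 of 25. Timp2, an inhibitor of metalloproteinases, had 2 of 29, the calcium channel Cacna1h 2 of 32 and the actin-capping gene Tmod1 2 of 37. With 1 of 20 or 21 windows each, Gsr, Nlrp4c, Slc22a2 and Acad10 completed the 10. Single counts of 1 or 2 windows make such an order of genes uncertain.

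The knockdown of Smarcc1 was compared with the Nons at each day, as the study was designed to ask what the BAF complex does to accessibility. Over the low-mean windows the median difference, knockdown minus Nons, was -2.54, 1.02, 0.971 and -0.062 percentage points on days 4, 5, 6 and 7. Over all autosomal windows it was -2.80, -1.07, 1.496 and 0.658. The SD of the chromosome medians over the low-mean windows was 0.794, 1.46, 0.947 and 0.522 (n = 19), so that the differences at days 5 and 7 were smaller than this spread. At day 4, 67.9% of the low-mean windows (911) were lower in the knockdown, against 66.0% of all windows, and at day 5, 44.97% (603) against 53.9%. At day 6, 41.4% (555) were lower against 41.9%, and at day 7, 50.6% (678) against 45.3%. The direction over the low-mean windows was that of all windows at days 4 and 6 and not at days 5 and 7. All these values had entered the rule, so the differences are not independent of the choice. Windows chosen on the other 8 libraries, a separate set for each library, had day 5 medians of 18.2% (Nons) and 17.4% (knockdown). At day 7 such medians were 5.30% and 6.00%, and on both days their order was that of all windows. With 1 library at each day and libraries that differ in general level, none of these differences could be tested between conditions.

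Taking the 4 days as blocks, limma was fitted over 829493 autosomal and X windows. No window passed an adjusted p of 0.05 (Benjamini-Hochberg, 0% of windows), among the low-mean windows or elsewhere, and the smallest adjusted p among the low-mean windows was 0.995. At an unadjusted p under 0.05, 3 low-mean windows (0.224%) were higher in the knockdown, against 1.58% of all windows, and 4 (0.298%) were lower, against 2.65%. On the arcsine square root scale, which widens differences between low percentages, 35 (2.61%) were higher and 41 (3.06%) lower at this p, against 1.77% and 2.74% of all windows, and none passed the adjusted threshold. On the percent scale, the difference that low-mean windows can show is limited, since the rule caps the mean of the same values at 7%. The knockdown was above the Nons on all 4 days in 59 low-mean windows (4.40%), against 4.95% of all windows, and below it on all 4 days in 94 (7.01%), against 6.81%. These shares were near those of all windows.

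The windows with the smallest unadjusted p are given as values. At chr4:14335721-14340816, outside genes, the Nons read 1.96%, 4.35%, 1.92% and 1.79% at days 4 to 7 and the knockdown 10%, 21.4%, 14.3% and 7.02%, a difference of 10.7 percentage points (SE 3.78). At chr11:103368884-103370927 in Plekhm1, an adaptor of lysosome fusion, the knockdown was higher by 8.32 (SE 3.72), and at chr16:12332637-12344765, outside genes, by 8.99 (SE 4.22) with 4 of 8 values at 0%. At chr14:5901151-5906129, outside genes, the Nons read 13.6%, 14.8%, 16.3% and 4.05% and the knockdown 1.27%, 7.79%, 3.45% and 0%, a difference of -9.08 (SE 3.73). At chr12:13744167-13747343 the difference was -8.66 (SE 3.68) and at chr12:103959046-103962282 -8.61 (SE 3.96), both outside genes. For each of the 6, the adjusted p was 0.995 (limma, Benjamini-Hochberg).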

How the data were processed

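NOMe-seq was done on fixed cells, and libraries were made with the Accel-NGS Methyl-Seq kit. After trimming (trim_galore), the authors aligned reads with Bismark to an mm10 genome whose FVB and CAST differences were masked, and extracted GpC positions with coverage2cytosine. Each deposited value is a percent of methylated GpC, computed by the authors in Seqmonk over windows named as holding 200 read positions, with both alleles merged and no scaling between libraries that could be seen. Library levels therefore differ as a whole, and coverage is unknown.

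All 9 value columns matched 1 sample title each. Windows on chromosomes 1 to 19 with 9 values were used. Those with an unweighted mean of 7% or less were taken. The members and the gene lists were chosen with earlier results of these data known. GC content, soft-masked share, CpG and informative GpC positions (GC not followed by G, either strand) came from GRCm38.p6, and genes from GENCODE M21, with introns, exons and starts as annotated there. Sequences upstream of genes came from RefSeq, and Cd72 was named for its role only, outside the rules that follow. Named items were the lowest windows and those beside the limit, the 10 lowest coding starts, genes with most windows or the highest share among those with 20 windows or more, up to 3 genes a family, the 5 bins with the highest shares, and 3 windows each way by limma p. The 5 longest runs of adjacent windows were also to be named, and ties in length were broken by the mean after the runs had been seen. limma 3.58.1 was fitted on percent with day as block. Its power to find differences of the size that low-mean windows can show was not tested. With 1 library per condition, p-values measure only the spread of differences over days. Alternatives were other limits, the median, quantile normalisation, length, zero and missing value filters, each library left out, and for limma other scales, no day term and each day left out.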

Additional observations from a re-analysis of the deposited data

Results flagged for a closer look

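X windows were outside the choice of low-mean windows and entered only the limma fit with its shares of all windows. Under the same limit, 112 of 42960 X windows (0.261%, exact 95% interval 0.215% to 0.314%) were low-mean, against 0.170% of autosomal windows. The difference was not tested, since both shares come from the same 9 libraries.

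Over the low-mean windows, the median of knockdown minus Nons had opposite signs on different days, namely -2.54, 1.02, 0.971 and -0.062 percentage points on days 4, 5, 6 and 7. The same values had entered the choice of these windows. The difference between days was not tested, because each condition and day was 1 library.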

How the results depend on the processing

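The GC content of the low-mean windows stayed above that of all windows, and their length below it, under each alternative tried for the choice of windows. The number of windows depended strongly on it. A limit of 6% left 186 windows, with starts in 3.23%, a median GC content of 47.2% and 0% next to another, while a limit of 8% gave 6570 windows with 5.45% next to another. A median of 7% or less gave 19857 windows (8.41% next to another, 1103 of the 1341 among them), and windows with no value of 0% were 520 (0.385% next to another). With each library left out and the limit kept, the number ran from 822 to 5894, the share with a start from 1.92% to 2.49%, the GC content from 44.4% to 45.9%, the length from 2508.5 to 2623 bp and the share next to another from 0.243% to 4.66%. The number was 5886 without Nons day 5, 5894 without knockdown day 5, 2755 without Nons day 4 and 822 without Nons day 7. Quantile normalisation gave 1020 windows, 836 of them shared, and a choice of equal size after dividing each library by its median, added after seeing the data, shared 849. The level in a library left out had a median of 0.861 times that of all windows, 0.845 after quantile normalisation, 0.866 without values of 0%, and 0.861 in windows with 300 GpC positions or fewer, also added later. For the knockdown, 0 windows passed the adjusted threshold in each of the other limma fits, including that with no replicate block for day and those without a day or a library. With a library left out, the other library of its day no longer informs the difference, so that the fit equals that without the day.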
